A study of Mus musculus with 20 samples.

Results

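Peyer's patches (PP) hold T follicular helper (TFH) cells that carry the GL7 epitope and TFH cells that lack it, and their RNA was compared here on 4 of the 20 arrays of the study, 2 for GL7+ and 2 for GL7- cells. Members were chosen by the tissue and GL7 status that the labels give, with no measured value involved. Both fractions came from B6.Cg-Foxp3tm1Mal mice, which report Foxp3 through green fluorescent protein (GFP). The animals were 8 to 14 weeks old, of both sexes, and 8 to 15 of them were pooled for a sample. Cells were sorted as B220-, CD4+, GFP- and PD1hi, and then split by GL7. The labels give an immunisation for the peripheral lymph node (pLN) samples and none for the PP samples, while the study's account of the sorts names one for both tissues together, so whether the PP mice were immunised is not settled here. Pooling means that animals do not enter the spread. An SD describes 2 sorted pools per fraction. A limma p-value or SE uses a spread shared with the other sorted groups, the pLN samples included.

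TFH cells enter B cell follicles through the chemokine receptor CXCR5, are directed by the transcription factor Bcl6, and help germinal centre B cells with CD40 ligand, IL-21 and IL-4. GL7 is an antibody that binds a sialic acid-bearing sugar chain, found on germinal centre B cells and on part of the T cells that meet them. The epitope is a glycan without a probe of its own, so the arrays do not check the GL7 label. Peyer's patches face the gut flora, and T cells of the gut include Th17 cells, which make IL-17 and IL-22, and Th1 cells, which make interferon-gamma under T-bet.

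Each PP slide held 1 GL7+ array, 1 GL7- array, and the Treg and T follicular regulatory (TFR) arrays, and the arrays of a slide were compared with each other. The first arrays of the fractions lay on slide 4 with 50 ng RNA input and the second on slide 5 with 40 ng. GL7+ RNA was always at position 1 of the slide and GL7- RNA at position 2, so position and fraction cannot be told apart. Values are normalised intensities on a linear scale (75th percentile 1500, floor 20) in the order slide 4, slide 5, and differences are log2 GL7+ minus GL7-. On these 4 arrays 53.6% to 56.9% of probes were detected, that is, well above background in at least 3 of 4 features.

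The TFH identity of both fractions was checked first. Cd3e, the CD3 epsilon chain, had intensities of 148655 and 93112 in GL7+ and 142331 and 88932 in GL7- cells, and Cd4 had 135500 and 85264 against 127880 and 81050. Il21, the cytokine of TFH cells, had 17168 and 15163 in GL7+ and 14409 and 13435 in GL7- cells, far above the 92.8 and 81.6 of PP Treg cells. Foxp3 lay between 35.3 and 40.7 on the 4 arrays, with 1 of 2 arrays detected in each fraction, while PP Treg cells had 26173 and 14718. Thus the T cell and follicular markers were present and the Treg factor was near background in both fractions.

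The GL7+ and GL7- fractions differed in few transcripts, and the clearest differences were transcripts at or near background in GL7+ cells. Among 22264 tested probes, limma with slide as a block called 4 (0.018%) at an adjusted p under 0.05 and a log2 difference of at least 1. They represented Il17a, Slc6a13, Kcnk1 and Fam83a, and each was lower in GL7+ cells. Probes were tested if both arrays of a group detected them, and Il17a, Kcnk1 and Fam83a met this through GL7- cells alone, so that filter fixed their direction. Without the filter Fam83a kept its call (adjusted p 0.0227), and Il17a, Slc6a13 and Kcnk1 had adjusted p-values of 0.145, 0.145 and 0.237. No probe was called as higher, while 712 probes were lower and 623 higher at an unadjusted p under 0.05. Without the block, limma called 2 (0.00898%) as lower, Il17a and Fam83a, and none as higher, with 254 at an unadjusted p under 0.05. For 88.8% of tested probes the 95% interval of the difference lay within 1 log2 unit of 0, and for 32 probes it lay wholly beyond.

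A description that uses no test gave more members. At least 1 log2 unit lower in GL7+ cells on both slides were 83 probes (0.373%), and 58 probes (0.261%) were at least 1 unit higher on both. Across all tested probes the slide 4 difference and the slide 5 difference had a Pearson r of 0.38 and a Spearman rho of 0.37, where probes are not independent replicates. By the same measure, 1166 probes separated TFR from GL7+ cells and 1129 separated TFR from GL7- cells, and 2736 and 2357 separated Treg from GL7+ and from GL7- cells, against 141 between the GL7 fractions. These counts share arrays and are given side by side as a scale.

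**Figure D1:**
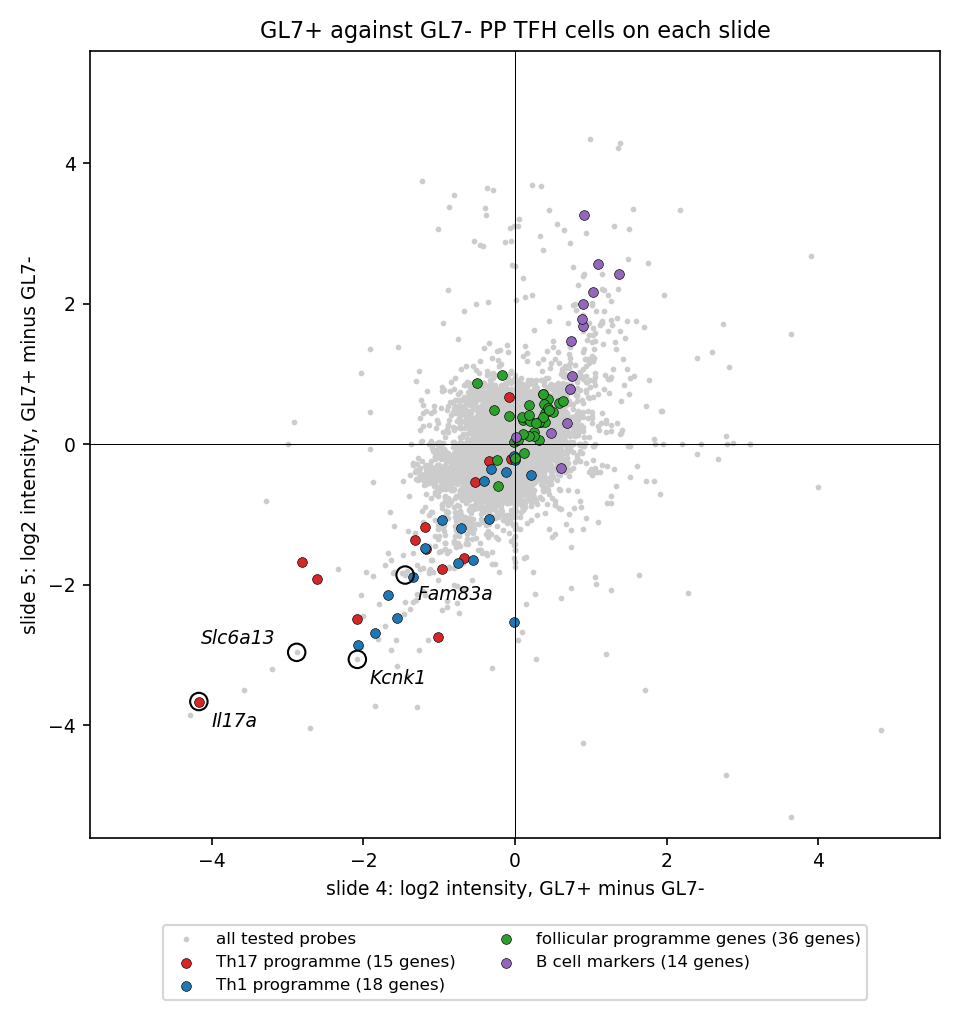
Log2 intensity difference between GL7+ and GL7- PP TFH cells on slide 4 (x axis) and on slide 5 (y axis), 1 dot per tested probe, with members of 4 gene lists in colour and the 4 called genes circled. Il17a lies at -4.17 and -3.66, most Th17 and Th1 genes lie below 0 on both axes, and the B cell markers lie above 0 on the x axis.

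Il17a encodes the cytokine IL-17A, and its probe lies on chromosome 1 at 20724404 to 20724463 of mm9. Its intensity was 24.7 and 20.8 in GL7+ cells, below background on both arrays, and 443 and 263 in GL7- cells. The GL7+ array was the lower one on both slides, as for 28.6% of all tested genes. The log2 difference was -3.92 (SE 0.33, 95% interval -4.67 to -3.17, limma adjusted p 0.0199), and since GL7+ cells have only a bound the transcript was at least 11.8-fold lower in them. GL7- cells were also the only group of the 12 in which an array detected the probe: PP Treg cells had 40.3 and 20, PP TFR cells 20 and 32, and day 12 pLN TFH cells 28.2 and 29.8. Leaving out any 1 of the 4 arrays ended the call, with a difference between -4.20 and -3.64. The difference was -3.66 without slide 4 and -4.17 without slide 5. Each of these 2 fits sets 1 array against 1, so PP arrays give it no spread. With normexp background correction, which adds an offset of 50, the difference was -1.98 and still called (0.0307). In bulk RNA, more cells with the transcript and more transcript per cell cannot be told apart, here and for every gene below.

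Il17f encodes IL-17F, the neighbour and relative of IL-17A. Its intensity was 33.1 and 31.7 in GL7+ and 139 and 177 in GL7- cells. The difference was -2.28 (SE 0.30), with a limma adjusted p of 0.0934 that missed the threshold. The 250 bases before the start of both genes are shown because both were lower in GL7+ cells, though by unlike sizes (-3.92 and -2.28). They come from RefSeq on GRCm38.p6, for Il17a as chr1:20730655-20730904 (+ strand) and for Il17f as chr1:20784271-20784520 (- strand). Capitals mark matches, searched on both strands and without overlap. The letters searched were AGGTCA for a nuclear receptor half-site. For the factor AP-1 they were TGANTCA. For the box that positions transcription starts they were TATAAA.
Il17a: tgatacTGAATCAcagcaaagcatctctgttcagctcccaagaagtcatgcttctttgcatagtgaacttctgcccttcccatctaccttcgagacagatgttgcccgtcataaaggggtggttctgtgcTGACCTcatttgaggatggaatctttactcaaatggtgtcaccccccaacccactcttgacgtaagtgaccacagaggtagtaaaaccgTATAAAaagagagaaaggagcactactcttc
Il17f: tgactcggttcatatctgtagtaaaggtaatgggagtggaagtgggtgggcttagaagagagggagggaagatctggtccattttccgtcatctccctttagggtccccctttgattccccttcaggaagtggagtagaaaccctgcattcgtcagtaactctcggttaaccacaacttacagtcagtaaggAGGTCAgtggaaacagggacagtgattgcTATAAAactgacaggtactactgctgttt
Both windows held AGGTCA, on the minus strand in Il17a and on the plus strand in Il17f, and both held TATAAA, at 31 and 29 bases before the start. TGANTCA was matched in Il17a only. Among 32851 RefSeq windows of the same length, 14% held AGGTCA, 6.75% TGANTCA and 12.4% TATAAA. The matches describe letters and are not evidence of binding.

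Other members of the Th17 list were lower in GL7+ cells as well. Of 15 tested genes of the list, 13 were lower on both slides (86.7%, against 28.6% of all 17322 tested genes), and 8 were at least 1 log2 unit lower on both (0.398% of all tested genes). The median difference of the list was -1.33, with -1.01 on slide 4 and -1.49 on slide 5, against 0.02 over all tested genes. Only Il17a was called, so the other members are values that did not pass the test. The counts and medians include Il17a, whose direction the detection filter fixed. The list was chosen with earlier results of these data known, so its direction is not independent evidence.

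Il22, the epithelial repair cytokine IL-22, had 75.7 and 95.6 in GL7+ and 531 and 306 in GL7- cells (difference -2.24, SE 0.43). Il17re, a receptor subunit for IL-17C, had 49.4 and 73.7 against 301 and 277. Il23r, the IL-23 receptor chain that maintains Th17 cells, stood at the floor of 20 on both GL7+ arrays and at 40.2 and 133 in GL7- cells. All 3 genes were lower in GL7+ cells on both slides, as were 28.6% of all tested genes. Ccr6, a chemokine receptor of Th17 cells, had 2263 and 1987 against 5669 and 5104 (-1.34, SE 0.40). Tmem176a and Tmem176b, membrane proteins found in Th17 cells, differed by -1.37 and -1.15. Some genes of the list stayed near 0 or above: Stat3 differed by 0.30, Il21r by -0.13 and Il1r1 by 0.55. Ahr and Rora differed by -0.53 and -0.29.

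Il22 and Il17f did not follow Il17a across the other groups. Il22 had 485 and 259 in day 12 pLN TFH cells, which were sorted as GL7+, as in PP GL7- cells. Il17f had 98.3 and 54.3 there, detected on 1 of 2 arrays. Ccr6 was higher in PP Treg cells, at 9914 and 7236, than in either TFH fraction.

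**Figure D2:**
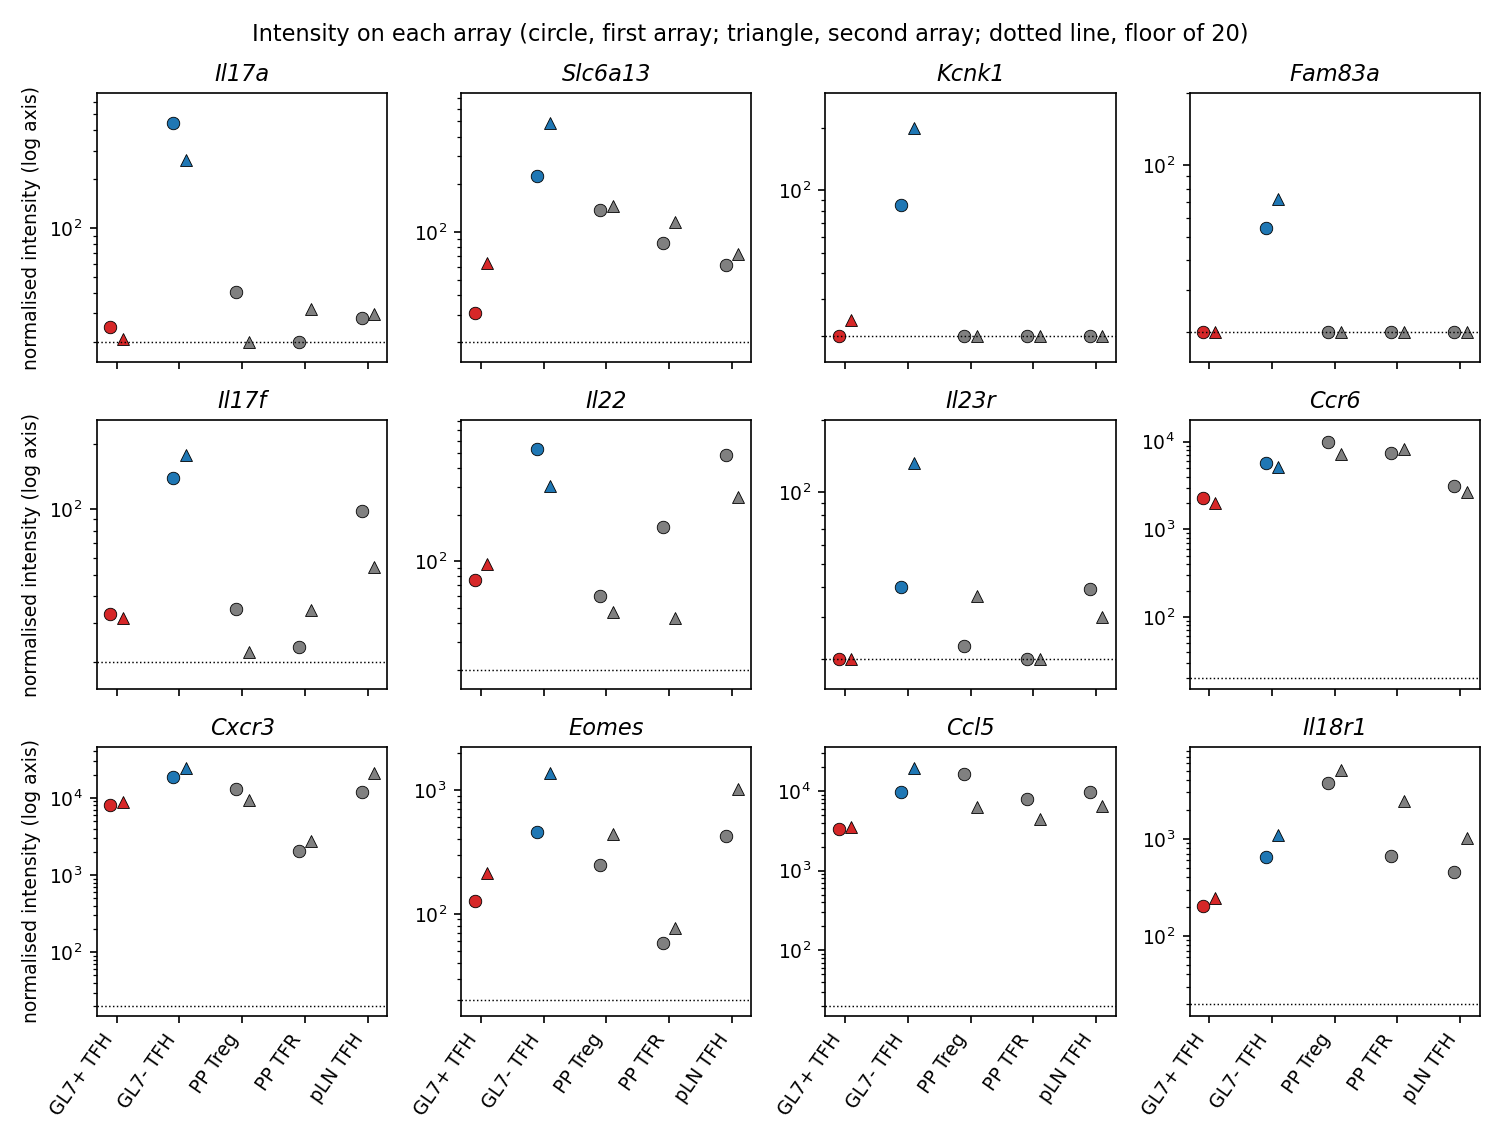
Normalised intensity (log axis) of 12 genes on each array of GL7+ and GL7- PP TFH, PP Treg, PP TFR and day 12 pLN TFH cells, with a circle for the first array, a triangle for the second and a dotted line at the floor of 20. In each panel both GL7+ arrays lie below both GL7- arrays, and Il17a, Kcnk1 and Fam83a are at most 40.3 in every other group drawn. The 12 genes were picked with their results known, so the shared order of the fractions reflects that choice. The share of all tested genes with this order was not counted. Stat3 and Il1r1 of the Th17 list and Il12rb2 of the Th1 list lack it and are not drawn.

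Th1-type genes were lower in GL7+ cells by sizes like those of the Th17 list, with no call. Of 18 tested genes, 16 were lower on both slides (88.9%, against 28.6% of all tested genes). On both slides 0 were higher (against 37.4% of all tested genes). At least 1 log2 unit lower on both were 6, again against 0.398% of all tested genes. The list had a median of -1.06, with -0.63 on slide 4 and -1.33 on slide 5. At an unadjusted limma p under 0.05, 9 of its genes were lower, against 533 of all 17322 tested genes. This list too was chosen with earlier results of these data known. Eomes, a T-box factor of cytotoxic and memory T cells, had 128 and 214 in GL7+ and 459 and 1382 in GL7- cells (difference -2.27, SE 0.39, limma adjusted p 0.184). Il18r1, the IL-18 receptor chain, had 203 and 247 against 650 and 1086 (-1.91, SE 0.36).

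More abundant transcripts of the list were lower in GL7+ cells as well. Ccl5, an inflammatory chemokine, had 3323 and 3504 in GL7+ and 9802 and 19465 in GL7- cells. Cxcr3, the receptor that guides Th1 cells, had 8191 and 8794 against 18628 and 24514. Both genes were lower in GL7+ cells on both slides, as were 28.6% of all tested genes. Ifng, which encodes interferon-gamma, differed by -1.02 (SE 0.42), its regulator Tbx21 by -0.95 (SE 0.44), and the granzyme genes Gzmk and Gzmb by -1.62 (SE 0.46) and -1.22 (SE 0.30). Stat4, Il12rb2 and Ccl4 lay close to 0 at -0.11, -0.11 and -0.10. Nkg7, a granule protein gene, has a pair of probes that disagreed: the brighter one used for the list gave -0.25 and the other -1.84.

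The other called genes lay outside the gene lists. Slc6a13 encodes a transporter of GABA and taurine, and its probe lies on chromosome 6 at 121287597 to 121287656 (mm9). It had 30.6 and 63.2 in GL7+ cells and 226 and 492 in GL7- cells, with a difference of -2.92 (SE 0.26, limma adjusted p 0.0256). GL7+ was detected on 1 of 2 arrays, and both GL7+ arrays lay below PP Treg (137 and 145) and PP TFR cells (84.7 and 115). Kcnk1 encodes a potassium channel subunit, and its probe lies on chromosome 8 at 128554281 to 128554340 (mm9). It had 20 and 24 against 84.7 and 200, at least 4.49-fold lower in GL7+ cells (limma adjusted p 0.0455), and lay at the floor in PP Treg and PP TFR cells.

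Fam83a belongs to a family of scaffold proteins, and its called probe lies on chromosome 15 at 57841138 to 57841197 (mm9). It was at the floor of 20 on both GL7+ arrays and had 54.6 and 72.6 in GL7- cells, at least 2.17-fold lower (limma adjusted p 0.00766). A second Fam83a probe, at 57827097 to 57827156, did not show this: it had 102 and 31.6 in GL7+ and 78.8 and 45.5 in GL7- cells (-0.08, SE 0.21), higher in GL7+ cells on slide 4 and lower on slide 5. No array of another group detected the called probe, but on slides 2 and 3 the lowest detected intensity was 67.6 to 144, so a level like that of GL7- cells could have gone undetected there.

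The 4 calls did not hold under every setting. From the 8 PP arrays alone, where no pLN array enters the spread, limma gave each an adjusted p of 0.353. With a floor of 1 no call held, although the differences were as large or larger: Il17a -3.92 (adjusted p 0.0821), Slc6a13 -2.92 (0.0568), Kcnk1 -2.74 (0.102) and Fam83a -2.18 (0.0568). With normexp Slc6a13 was called at -1.71, while Kcnk1 at -1.11 (0.154) and Fam83a at -0.70 (0.133) were not. Slc6a13 lost its call without either GL7+ array, without GL7- replicate 2 and without either slide. Kcnk1 lost it without either GL7+ array and without slide 5, and Fam83a without GL7+ replicate 2 and without slide 5. Fits that leave out an array or a slide have 1 array in a fraction, so their spread comes largely from other groups. Just outside the threshold were Adgrg3, an adhesion-type receptor, at an adjusted p of 0.0505 (difference -1.11) and Cpe at 0.0594.

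Calca, Pcsk1 and Cpe, which take part in making peptide hormones, were lower in GL7+ cells by value and were not called. Calca and Pcsk1 were named by the rule on size, and Cpe was chosen after its values were seen. Calca, which encodes calcitonin and the neuropeptide CGRP, had 20 and 38.6 in GL7+ and 392 and 555 in GL7- cells. Its difference of -4.07 (SE 0.57, limma adjusted p 0.12) missed the threshold, and its size is uncertain because GL7+ cells detected it on 1 of 2 arrays (-2.25 with normexp). PP TFR cells had more, at 1360 and 6247. Pcsk1, a prohormone convertase, had 21.5 and 28.5 against 88.2 and 127 (-2.09, SE 0.26, adjusted p 0.0889). Cpe, the carboxypeptidase that finishes such peptides, had 347 and 240 against 972 and 853 (-1.66, SE 0.18), and its other probes gave -1.65 and -1.45. All 3 genes were lower in GL7+ cells on both slides, against 28.6% of all tested genes.

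Klrb1b and a T cell receptor gamma probe were also named by the rule on size, and neither was called. Klrb1b, an inhibitory lectin receptor of natural killer (NK) cells, had 20.6 and 73.4 in GL7+ and 246 and 829 in GL7- cells (-3.54, SE 0.49, limma adjusted p 0.12), and its other probe gave -3.19. A probe for a transcript that RefSeq synonyms name Trgc1, a constant region of the T cell receptor gamma chain, had 170 and 167 against 720 and 943 (-2.29, SE 0.33, adjusted p 0.127). The near-identical gamma constant genes may share this probe, so which copy it reads is uncertain. A second Trgc1 probe gave -2.04, and Trgv2, a gamma variable segment, gave -1.45 (85.5 and 98.5 against 186 and 339). All 6 tested gamma chain probes on chromosome 13 were lower on both slides, as were 28.6% of all tested genes. Their differences ran from -2.29 to -0.34 (Tcrg-V1). These probes are not separate genes, since 2 read Trgc1 and others lie close together. The 3 probes on chromosome 14 whose annotation names the gamma or delta chain lay near 0, at -0.16, -0.03 and 0.07. Fcer1g, a signalling chain of Fc and NK receptors, had 716 and 481 against 1864 and 2437 (limma adjusted p 0.807), and belongs to the list of myeloid markers.

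Markers of NK and innate-like T cells taken as a list gave smaller values. Of the list of CD8, NK and innate-like T markers, 7 of 9 genes were on the array by name and 5 were tested, with a median of -0.15 (-0.03 with normexp) and 0 calls. Cd8a differed by -0.03, Cd8b1 by 0.06 and Zbtb16, the factor PLZF, by -0.46 (84.7 and 62.5 against 99 and 101). Klrb1c, an NK cell receptor gene, had 4743 and 4194 against 5899 and 4505 (-0.21, SE 0.76). A dimmer Klrb1c probe gave -0.65 (SE 0.10, limma adjusted p 0.127). The summed intensity of these 5 genes was 5637 and 5261 in GL7+ and 6865 and 5513 in GL7- cells, most of it from Klrb1c. Klrc1 was not detected on any of the 4 arrays. Whether such cells in the GL7- gate had a part in the Il17a, Th17 and Th1 values was not tested. The T cell identity list (CD3 chains, Cd4, Lck and others) had a median of 0.09 over 10 genes, and of -0.04 with scaling to the 75th percentile alone.

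Cytokine and homing genes outside these lists showed single members with large values. Il10, an anti-inflammatory cytokine, was below background in GL7+ cells at 29.8 and 22.9 and had 68.1 and 101 in GL7- cells. Il1rl1, the IL-33 receptor, had 26.5 and 32.5 against 103 and 115 (-1.89, SE 0.51). Il2ra, the high-affinity chain of the IL-2 receptor, had 62.7 and 112 against 174 and 333 (-1.52, SE 0.28, limma adjusted p 0.22). Cish, a target of IL-2 signalling, differed by -1.05 (SE 0.41). Ccr9, which guides T cells to the small intestine, had 464 and 384 against 1157 and 921 (-1.29, SE 0.31), and Itga4 and Itgb7, the chains of a gut homing integrin, differed by -0.48 and -0.36. The lists themselves had medians near 0: -0.13 for Th2 genes (9 tested), -0.10 for Treg identity (13), 0.0082 for IL-2 response (12; -0.03 with scaling to the 75th percentile alone) and -0.02 for gut homing (16), each with 0 calls. Of the 9 Th2 genes, 4 were lower at an unadjusted limma p under 0.05, against 533 of all 17322 tested genes. They were Il10, Il1rl1, Il13 (-1.10) and Ccr8 (-0.48). Lrrc32, a surface molecule of Treg cells, was an exception in direction, with 144 and 154 in GL7+ and 72.8 and 97.8 in GL7- cells.

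The follicular programme separated the fractions by little. All 36 genes of the list were tested, 27 were higher in GL7+ cells on both slides (75%, against 37.4% of all tested genes), 3 were lower on both, and 0 were called. This list was drawn up with genes the study had shown as regulated in these samples, so its direction is not independent evidence. The median difference was 0.26 (0.21 on slide 4, 0.36 on slide 5), and the values ranged from -0.41 to 0.62. For 50% of the genes the 95% interval lay within 1 log2 unit of 0.

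Bcl6, the master factor of TFH cells, had 72183 and 51429 in GL7+ and 57075 and 41178 in GL7- cells (0.33, 95% interval -0.22 to 0.87). Cxcr5 had 169614 and 158615 against 128745 and 116671 (0.42, -0.26 to 1.10). On both slides the GL7+ array was the higher one for both genes, as for 37.4% of all tested genes. Pdcd1 (PD1) and Icos, surface receptors of TFH cells, differed by 0.30 and 0.38. Ascl2, which induces Cxcr5, had 27675 and 16893 against 18510 and 11230 (0.58, 0.07 to 1.09, limma adjusted p 0.816). Ptpn11, a phosphatase, differed by 0.48 (0.10 to 0.85), and Rgs16, a brake on chemokine receptor signalling, by 0.62 (-0.35 to 1.59). Cytokine genes of B cell help gave small values, 0.21 for Il21 and 0.26 for Il4. Cd200, a surface ligand of TFH cells, went the other way at -0.41 (-0.83 to 0.01).

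**Figure D3:**
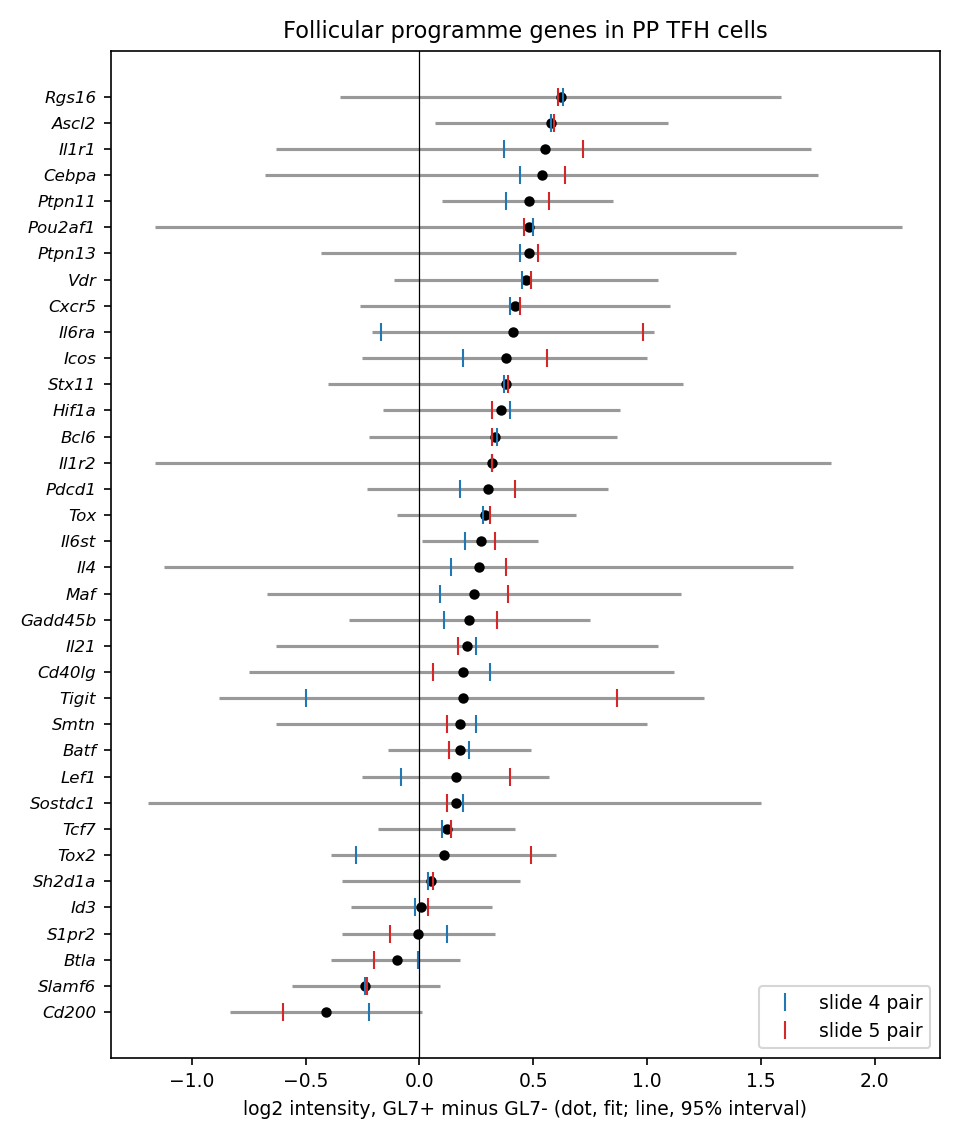
Log2 intensity difference, GL7+ minus GL7-, of the 36 follicular programme genes, with a dot for the fitted value, a line for its 95% interval and ticks for the slide 4 and slide 5 pairs. Values run from Cd200 at -0.41 to Rgs16 at 0.62, and 27 genes have both ticks above 0.

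Genes of quiescence and tissue egress, which TFH cells shut down on entering follicles, leaned lower in GL7+ cells. Of 17 tested genes 11 were lower on both slides (64.7%, against 28.6% of all tested genes). On both slides 2 were higher (11.8%, against 37.4%). The median was -0.23, and 0 were called. Klf2, the factor that maintains S1pr1, had 1815 and 2801 in GL7+ and 2363 and 4887 in GL7- cells (-0.59, SE 0.44), and S1pr1, the egress receptor, differed by -0.44 (SE 0.30). Id2 and Il7r, of effector and memory cells, differed by -0.59 each. Ccr7, the T zone receptor, differed by -0.22 (SE 0.33). Satb1 and Foxo1 of the list went the other way on both slides, at 0.45 (SE 0.25) and 0.18 (SE 0.13). Bach2 and Foxp1 had values of 0.16 and 0.11, with the slides differing in sign.

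Genes that build and edit sialic acid were examined because GL7 reads a sialylated sugar. Cmah hydroxylates sialic acid and so removes the form that GL7 prefers in mice. It had 390 and 224 in GL7+ and 627 and 482 in GL7- cells (-0.90, SE 0.20, limma adjusted p 0.446), and a dimmer Cmah probe gave -1.08 (SE 0.15, adjusted p 0.117). Both fractions lay below PP Treg cells (2343 and 2032) and day 12 pLN naive T cells (5078 and 5626). St6gal1, the transferase that places the sialic acid on galactose, had 5830 and 8153 against 4787 and 8113 (0.15, -0.12 to 0.41), which differed little on slide 5. St3gal6, another sialyltransferase, had 174 and 194 against 236 and 564 (-0.99, SE 0.41). Of the 27 tested genes of the list, 10 were lower on both slides (37%, against 28.6% of all tested genes). On both slides 13 were higher (48.1%, against 37.4%). The median was 0.05, and 85.2% had intervals within 1 log2 unit of 0 (against 88.5% of all tested genes).

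No transcript was called as higher in GL7+ cells, and B cell transcripts were among the largest values. By the rule for named genes, the 10 with the largest difference on both slides included 4 immunoglobulin probes and Nuggc, a gene of germinal centre B cells, beside Gm9564, Havcr1, Endou and Bfsp2. Nuggc had 134 and 87.5 in GL7+ and 34.1 and 20 in GL7- cells (2.05, SE 0.88, limma adjusted p 0.816), and was detected in GL7+ cells alone. Of the immunoglobulin probes, X67198 (2.76, SE 1.85) and D85126 (2.60, SE 1.17) lie on chromosome 6. A probe with no gene name that lies between them, at 70088456 to 70088515 (mm9), went the other way, with 24.6 and 20 in GL7+ and 160 and 329 in GL7- cells (A_55_P1959421, -3.37, SE 1.34, limma adjusted p 0.816).

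The list of B cell markers had a median of 1.20 over 14 genes (0.82 on slide 4, 1.58 on slide 5, and 0.66 with normexp). In GL7+ cells 13 of them were higher on both slides (92.9%, against 37.4% of all tested genes). At least 1 log2 unit higher on both were 3 (against 0.306% of all tested genes). Of the list limma called 0, with 0 at an unadjusted p under 0.05. Ms4a1 (CD20) had 7216 and 2418 in GL7+ and 3829 and 250 in GL7- cells. Cd79a, a chain of the B cell receptor, had 10922 and 2073 against 5907 and 645. For both genes the fractions overlapped across slides, since slide 5 was lower in both, and were ordered within each slide. Cd22 differed by 0.05 and Bank1 by 0.14.

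Summed over the 14 B cell genes, GL7+ had 49810 and 15915 and GL7- 28872 and 7138. The slide 4 arrays of PP Treg and TFR cells had 139391 and 205275. All 14 markers were detected in GL7+ cells on both slides. Epithelial markers stood apart by slide and not by fraction: 17444 and 1800 in GL7+ against 20601 and 1864 in GL7- cells. The epithelial list had a median of 0.06 over 10 genes and the myeloid list -0.17 over 11. The sort removed B220+ cells. Whether B cell RNA had a part in values higher in GL7+ cells, the follicular genes that B cells share (Bcl6, Cxcr5, Pou2af1 and others) included, was not tested. A probe for 28S ribosomal RNA (Rn28s1) also moved with the fraction, at 68563 and 27064 in GL7+ and 11300 and 10895 in GL7- cells (1.96, SE 0.30), while Rn18s (18S) differed by 0.0089. Its part in the other values was not tested.

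**Figure D4:**
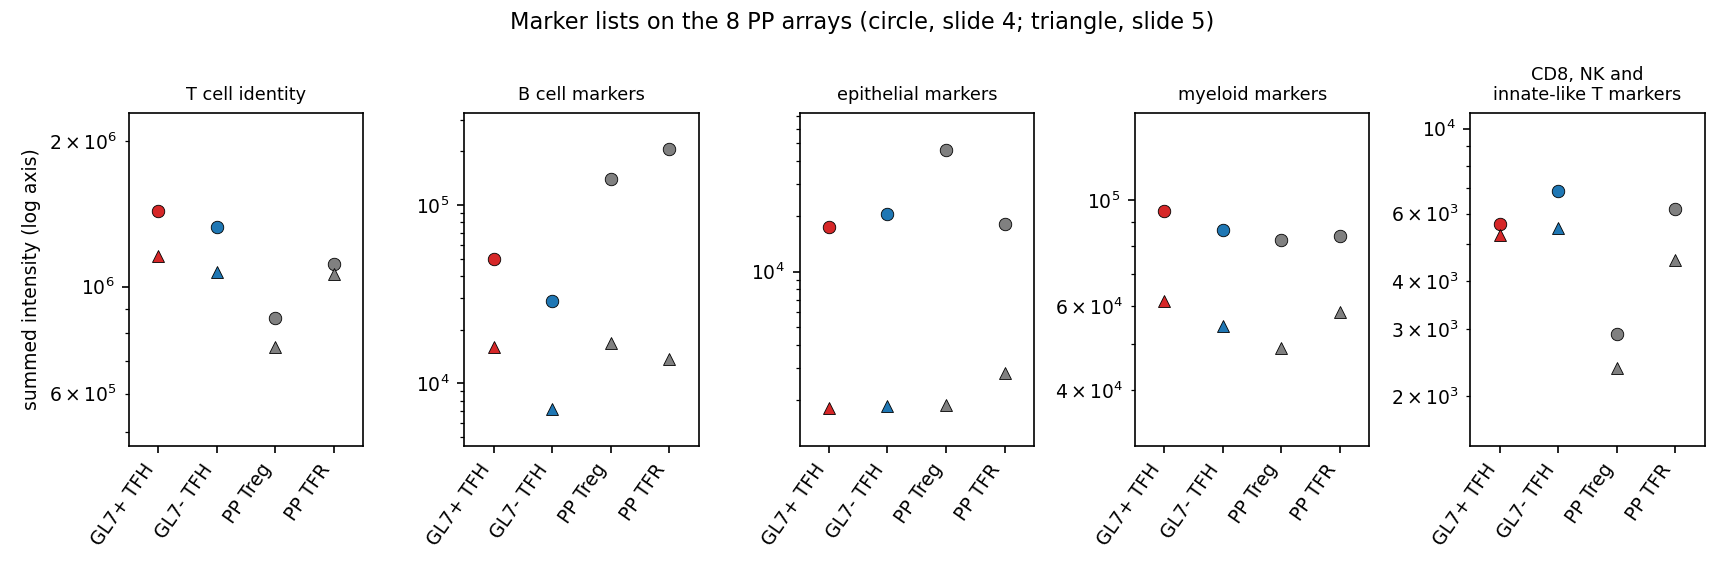
Summed normalised intensity (log axis) of 5 marker lists on the 8 PP arrays, with a circle for slide 4 and a triangle for slide 5. GL7+ arrays lie above GL7- arrays for B cell markers on both slides (49810 against 28872, 15915 against 7138), and the epithelial sums are set apart by slide.

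Counting detection alone gave the same order of size. Of all probes, 20489 were detected on the 4 arrays, 63 on both GL7- arrays and neither GL7+ array, and 43 the other way round. At least 4-fold bounds were reached by 7 of the 63 and by 0 of the 43. The leading ones beside Il17a and Kcnk1 were Serinc2 (at least 6.03-fold by 1 probe and 4.54-fold by another), Plxdc2 (at least 4.02-fold) and the unnamed chromosome 6 probe (at least 7.92-fold). Of the 43, Nuggc had the largest bound, at least 3.97-fold higher in GL7+ cells.

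Lists of cell state other than interferon response had medians near 0. Cell cycle genes had a median of 0.01 over 32 tested genes (-0.0043 with scaling to the 75th percentile alone) and ranged from -0.28 to 0.52, with Mki67, the proliferation marker, at 3195 and 4841 in GL7+ and 2674 and 3606 in GL7- cells. Glycolysis genes had a median of 0.07 over 15 genes (-0.02 with scaling to the 75th percentile alone), and 100% of their intervals lay within 1 log2 unit of 0. Antigen receptor response genes had a median of -0.06 over 18 genes. There Nr4a2, an early response factor, was the largest single value at -1.16 (SE 0.22), and Nr4a1, Egr1 and Egr2 lay at -0.05, 0.06 and 0.0052. Interferon response genes leaned lower in GL7+ cells, with a median of -0.19 over 18 genes. On both slides 11 were lower (61.1%, against 28.6% of all tested genes) and 3 higher (16.7%, against 37.4%). None of these lists held a called gene.

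**Figure D5:**
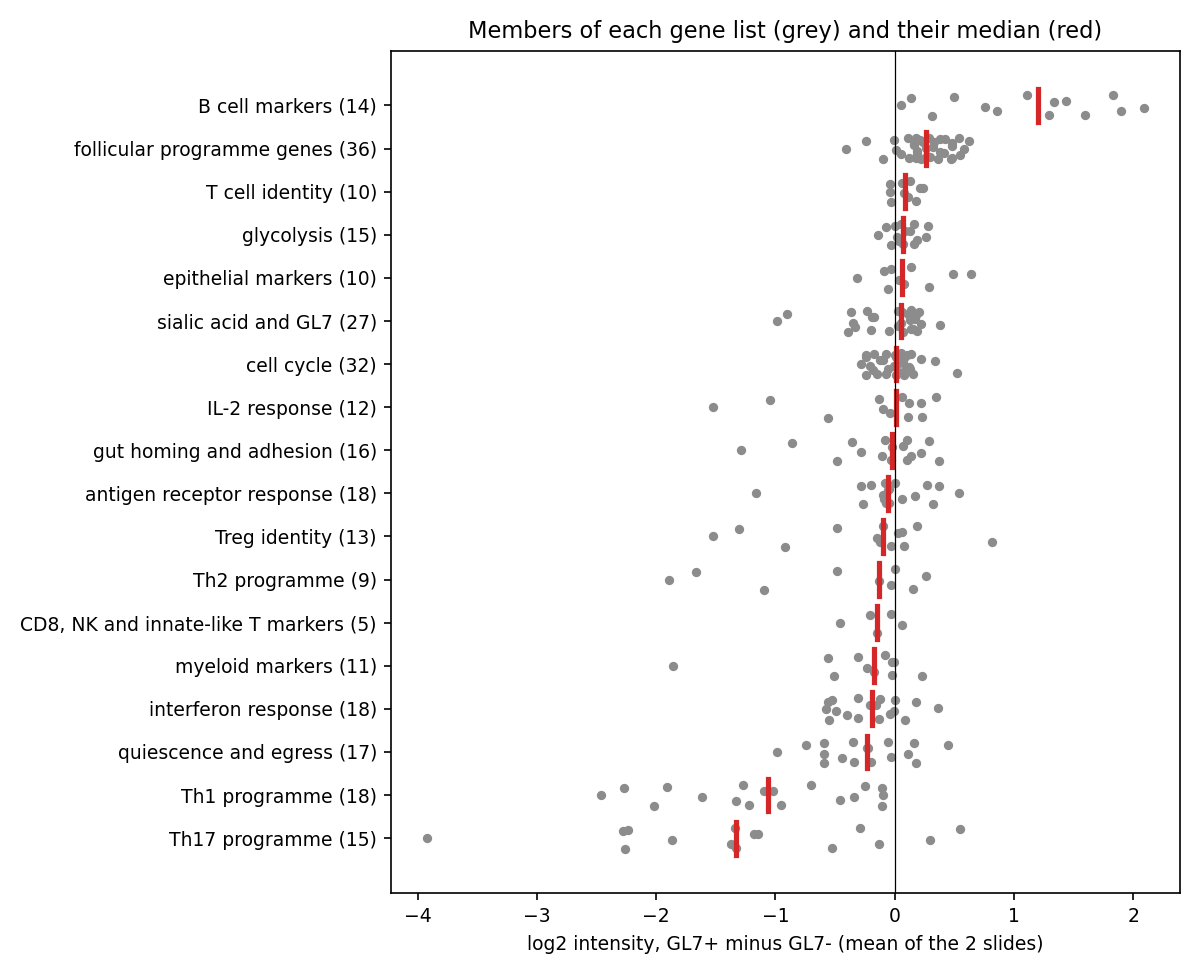
Log2 intensity difference, GL7+ minus GL7-, of each tested member (grey dots) of 18 gene lists, with the median as a red bar and the number of tested genes in parentheses. The Th17 (-1.33) and Th1 (-1.06) medians lie lowest and the B cell marker median (1.20) highest.

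Lastly, the fractions were placed on the axis from naive T cells to TFH cells, set by pLN arrays alone. On day 12, 4263 probes (19.1%) were called between pLN TFH and naive T cells. Over these the median difference between GL7+ and GL7- PP cells, signed so that a positive value points to TFH, was 0.0194, with 0.0129 on slide 4 and 0.0366 on slide 5. The median size of the pLN change that set the axis was 1.64, where the call itself required at least 1. Towards TFH in GL7+ cells were 52.2% of the probes on slide 4, 54.7% on slide 5 and 37.1% on both. Of all tested genes, unsigned by this axis, 37.4% were higher and 28.6% lower on both slides. On this scale the fractions lay close together.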

How the data were processed

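RNA of 20 sorted samples was hybridised to single-colour Agilent arrays, of which 4 are PP TFH samples. Per the file headers, the deposited scanner files hold the intensity of each feature as given by Feature Extraction 10.7.3.1, processed by background subtraction and detrending. The authors' series matrix, also deposited, holds their normalised intensity, and was an alternative. Features flagged as outliers, outside 1.42 times the interquartile range or with a pixel CV above 0.5 were left out. The geometric mean of the 4 features was quantile normalised, scaled, floored at 20 and taken to log2 (limma 3.58.1, R 4.3.3). The 22264 tested probes were detected on both arrays of a group of 2. limma fitted a mean for each of 12 groups plus slide, named in the file headers, over all 20 arrays (6 residual degrees of freedom, prior 2.17), with two-sided p-values and Benjamini-Hochberg adjustment over all probes. The script was tested on simulated data. Labels give no replicate numbers, so pairing rests on the slide. Some genes are not reported here. With 2 arrays a side, the number of arrays limits the precision.

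Named were the called probes, the 10 genes with the largest difference in each direction on both slides, and members of 18 lists, by the brightest probe per gene. Members and lists were chosen with earlier results of these data known. Symbols follow RefSeq (27578 probes matched) and positions the array annotation (mm9). A lower bound sets the GL7- mean against, per GL7+ array, the higher of the lowest detected signal and the probe's own value.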

Additional observations from a re-analysis of the deposited data

How the results depend on the processing

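With 2 arrays per fraction, the number of called probes moved with most choices. Against 4 called, limma gave 2 without the slide block, 27 with slide as a random block, 8 with scaling to the 75th percentile alone, 7 with an intensity trend and 1 with no filter on dim probes. It called 0 from the 8 PP arrays alone (1700 at an unadjusted p under 0.05), the 4 PP TFH arrays alone (2753), with a floor of 1 (1269) and among probes detected on all 4 arrays (1189, a filter that removes all 4 called). The methods' t-test gave 0 after Benjamini-Hochberg and 556 at an unadjusted p under 0.05. The count was 32 without slide 4 and 1 without slide 5, and between 2 (without GL7+ replicate 2) and 20 (without GL7+ replicate 1) when 1 array was left out, with 9 without GL7- replicate 1. The cause was not tested. The authors' values gave 3 and normexp 6. Ccr7 (-0.22) lay between -0.56 and 0.11 when 1 array was left out and turned positive without GL7+ replicate 1 or GL7- replicate 2 (0.03). Il23r (-1.87) was -2.62 without GL7- replicate 1 and -2.74 without slide 4, each with 1 GL7- array. With 1 feature above background sufficing, 124 and 186 probes were detected in GL7+ alone and GL7- alone (43 and 63 with 3). The pLN axis gave 0.0366 on slide 5 alone. With normexp Il17a went from -3.92 to -1.98 and Slc6a13 from -2.92 to -1.71, both still called, while Kcnk1 (-1.11) and Fam83a (-0.70) were not. Of 90 list medians recomputed with other values or on 1 slide, 21 moved by more than the spread between slides, in 7 lists whose medians lay between -0.23 and 0.09, and 9 changed sign. Those of the Th17, Th1, B cell and follicular lists kept their direction, and the first 3 were smallest with normexp or on slide 4 alone.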
